A study of Homo sapiens with 4 samples.

Results

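The long noncoding RNAs NEAT1 and MALAT1 and 7 noncoding hosts of small nucleolar RNAs (GAS5, SNHG1, SNHG3, SNHG5, SNHG6, SNHG7 and SNHG8) were followed after PELP1 was silenced in U87 MG, an established cell line from a human glioblastoma. These 9 genes were taken by symbol from 23228 gene symbols counted in each library. The rule itself uses no measured value, but the 9 were chosen with earlier results of these data known. Cells had received siRNA against PELP1 or a control siRNA, as 2 libraries of total RNA per group, taken 72 hours after transfection with oligofectamine and isolated with RNeasy columns. The libraries are given as duplicates only, so the p-values cover only how far these libraries vary, and that variation may be technical. Both groups came from the same line grown with serum and carried a transfected siRNA, and no untransfected cells were analysed here.

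NEAT1 is the architectural RNA of paraspeckles, nuclear bodies that hold RNA-binding proteins such as NONO and SFPQ, and MALAT1 is an abundant RNA of nuclear speckles, where splicing factors gather. The snoRNA hosts carry small nucleolar RNAs (snoRNAs) in their introns. Splicing releases them, and they then guide the methylation or pseudouridylation of ribosomal RNA. The spliced exons left over reach the cytoplasm, where ribosomes and nonsense-mediated decay remove several of them quickly. PELP1 is a scaffold protein that also helps to build the large subunit of the ribosome.

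NEAT1 and MALAT1 lie as neighbours on chromosome 11 (GRCh37), NEAT1 at 65190245 to 65213011 and MALAT1 at 65265111 to 65275544, both on the plus strand and 52100 bases apart. MALAT1 and the long transcript of NEAT1 are known to end not in a poly(A) tail added after cleavage but in an A-rich stretch encoded in the genome, which pairs with upstream U-rich stretches. The 2 ends are shown because this feature sets NEAT1 and MALAT1 apart from the spliced hosts and bears on how a library captures them. Capitals mark the words TTTCTTTT, TTTGCTTTT and AAAGCAAAA, each 5 to 60 bases from the next. The words were chosen from these ends themselves, and in that order and spacing they occur at 2 places on both strands of chromosome 11.
NEAT1, chr11:65212924-65213011, plus strand: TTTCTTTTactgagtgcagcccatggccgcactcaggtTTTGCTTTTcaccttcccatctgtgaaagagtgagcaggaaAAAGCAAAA
MALAT1, chr11:65273502-65273587, plus strand: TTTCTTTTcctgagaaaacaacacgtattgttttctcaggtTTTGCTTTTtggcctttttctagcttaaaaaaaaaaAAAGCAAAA
The NEAT1 match is the last stretch of the annotated gene, and the MALAT1 match lies 1957 bases before its annotated end.

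Several snoRNA hosts are known as 5'TOP RNAs, whose first base is a C followed by a pyrimidine stretch, the feature of ribosomal protein mRNAs that ties them to growth signals. Start regions of 7 of the 9 genes were found in RefSeq's table (GRCh38.p14); NEAT1 and SNHG6 had no entry. Those of the 6 hosts are shown from 20 bases before to 30 bases from the annotated start, with the longest pyrimidine run that reaches within 5 bases of the start in capitals.
SNHG1, chr11:62855856-62855905, minus strand: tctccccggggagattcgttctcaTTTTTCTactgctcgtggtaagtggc
SNHG7, chr9:136728155-136728204, minus strand: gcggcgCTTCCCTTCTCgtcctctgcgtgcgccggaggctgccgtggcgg
SNHG3, chr1:28505923-28505972, plus strand: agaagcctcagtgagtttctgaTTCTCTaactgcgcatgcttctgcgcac
GAS5, chr1:173869016-173869065, minus strand: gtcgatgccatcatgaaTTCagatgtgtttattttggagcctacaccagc
SNHG5, chr6:85678704-85678753, minus strand: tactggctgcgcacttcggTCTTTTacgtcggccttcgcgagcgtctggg
SNHG8, chr4:118278742-118278791, plus strand: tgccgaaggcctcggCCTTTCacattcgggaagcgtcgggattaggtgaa
A C followed by 4 pyrimidines lay within 5 bases of the start in SNHG5, SNHG7, SNHG8 and 1 of the 2 annotated starts of MALAT1. It did so in 19.7% of the 35116 promoters searched and in 58 of 85 ribosomal protein promoters. The MYC-binding word CACGTG, the same on both strands, was in the 300-base window of SNHG7 and in 7.26% of promoters. Annotated starts can be off by some bases, so a missing match says only that these letters are not there.

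Reads assigned to genes numbered 19389684 and 18670162 in the PELP1 siRNA libraries, against 19662271 and 22858988 in the control libraries. PELP1 itself stood at 16.4 ± 1.78 CPM with PELP1 siRNA and 76 ± 2.89 CPM with control siRNA (SD, n = 2 each), where CPM is a count scaled to library size with TMM factors. Mesenchymal genes of the line were abundant, VIM at 5830 CPM with PELP1 siRNA and 7077 CPM with control siRNA. The leukocyte marker PTPRC reached 0.0892 CPM and the endothelial marker CDH5 0.263 CPM in the highest library. Other markers of these cell types were higher, CD14 at up to 0.737 CPM (PELP1 siRNA library 2) and PECAM1 at up to 1.249 CPM (control library 2). Of 21 cell type markers 15 were tested, with 2 higher and 5 lower, against 12.9% of all genes tested called higher and 15.0% lower. The lower ones included VIM and SNAP25, and the higher ones the epithelial marker EPCAM. The neuronal gene SNAP25 was present, at 31.2 CPM with PELP1 siRNA and 48.3 CPM with control siRNA. The astrocyte marker GFAP was low, at 1.53 CPM with PELP1 siRNA and 1.37 CPM with control siRNA.

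All 9 RNAs passed the filter on low counts. With PELP1 siRNA, NEAT1, SNHG1 and SNHG7 fell, SNHG6 rose, and MALAT1, GAS5, SNHG3, SNHG5 and SNHG8 were not called (an adjusted p under 0.05 over 13234 genes, by edgeR's quasi-likelihood test). The counts of 1 higher and 3 lower stand beside 12.9% of all genes called higher and 15.0% called lower. The libraries of the groups did not overlap for 5 of the 9, against 64.2% of all genes tested. The median log2 fold change of the 9 RNAs was -0.15, that of all genes tested 0.00088. Leaving out control library 1 left 0 higher and 1 lower, and leaving out control library 2 left 0 and 3. With PELP1 siRNA library 1 left out there were 3 higher and 2 lower, and with library 2 left out 1 and 3. Of all genes called, 53.6% were lower, and 41.3% were with total counts in place of TMM scaling, under which the same counts of 1 and 3 were found among the 9 RNAs. The plot of levels by library shows the spread behind these calls.

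**Figure D1:**
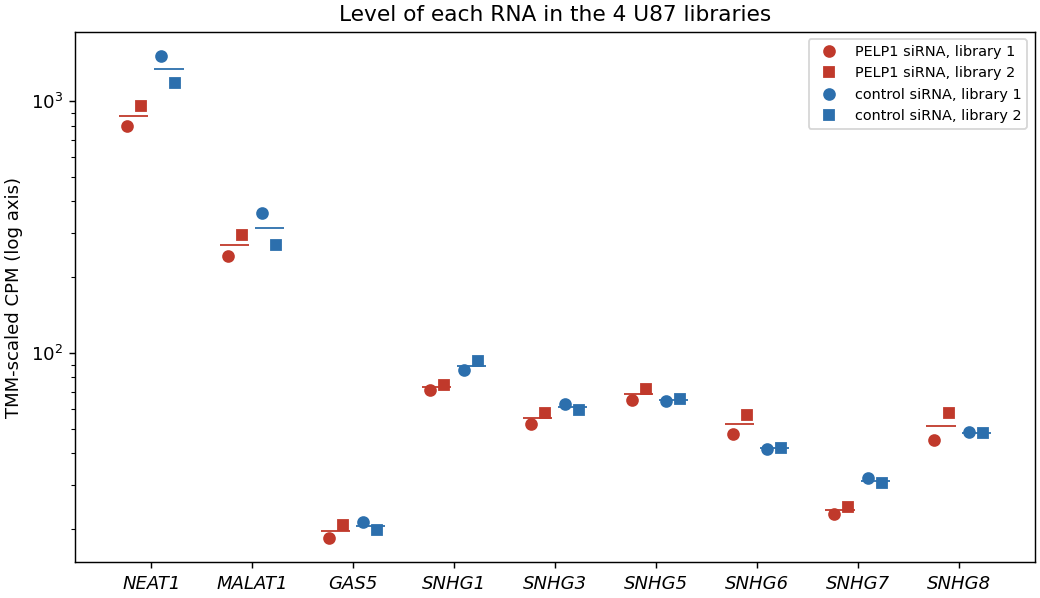
TMM-scaled CPM on a log axis of each of the 9 RNAs in the 4 libraries, with PELP1 siRNA in red and control siRNA in blue; points are libraries and lines the group means (n = 2). The groups separate for NEAT1, SNHG1, SNHG3, SNHG6 and SNHG7, and NEAT1 and MALAT1 show the widest spread among the control libraries.

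NEAT1 was the most abundant of the 9 by counts. It had 797 and 954 CPM in PELP1 siRNA libraries 1 and 2, against 1505 and 1183 CPM in control libraries 1 and 2. Both PELP1 siRNA libraries lay below both control libraries, and control library 1 stood well above control library 2. Means were 876 ± 111 CPM with PELP1 siRNA and 1344 ± 228 CPM with control siRNA (SD, n = 2 each), a log2 fold change of -0.62 (SE 0.12, adjusted p = 0.00311, edgeR quasi-likelihood test). NEAT1 ranked 91st and 77th among all genes by count in the PELP1 siRNA libraries, and 39th and 61st in the control libraries. The PELP1 siRNA libraries differed by 17.9% of their mean and the control libraries by 24%, while counting error was at most 0.80% in a library. The call did not hold without PELP1 siRNA library 1 (log2 fold change -0.49, adjusted p = 0.495) or library 2 (-0.75, adjusted p = 0.391). NEAT1 makes a short and a long transcript from the same start, and the long one is needed for paraspeckles; a gene count does not separate them.

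MALAT1 had 243 and 293 CPM in PELP1 siRNA libraries 1 and 2, against 359 and 269 CPM in control libraries 1 and 2. The groups overlapped, since control library 2 lay below PELP1 siRNA library 2. The log2 difference was -0.22 (SE 0.13, adjusted p = 0.257). Without control library 2 it was -0.42 (adjusted p = 0.00485), and without control library 1 it was -0.0032 (adjusted p = 0.992). The adjusted p was 0.0248 with no filter on low counts. MALAT1 shares 83.7% of its exon bases with transcripts annotated on the opposite strand, the antisense RNA TALAM1 among them. The strand setting of the counting is not given in the sources used here, so reads of the antisense RNA cannot be told apart. FRMD8, the nearest protein-coding gene before NEAT1, did not pass the threshold, being at 0.069 in log2 terms (adjusted p = 0.648).

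Within each group NEAT1 and MALAT1 were high in the same library. NEAT1 had 3.28 and 3.25 counts per MALAT1 count in the PELP1 siRNA libraries, against 4.20 and 4.40 in the control libraries, so the ratio varied less within a group than either RNA alone. The log2 ratio differed by -0.40 between PELP1 siRNA and control siRNA (exact two-sided permutation test, p = 0.333, the smallest that 2 against 2 libraries can give). The share of uniquely aligned reads that fell in no annotated feature followed the same order within each group. It was 11.6 and 12.4% in PELP1 siRNA libraries 1 and 2 and 12.8 and 12.0% in control libraries 1 and 2. The groups overlapped in this share, as for MALAT1 but not for NEAT1. Reads in no feature include those of introns, which mark unspliced nuclear RNA. Their part in the fall of NEAT1 was not tested. In bulk RNA, fewer cells with an RNA and less RNA per cell cannot be told apart.

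Of 388 snoRNA and scaRNA symbols in the files, 58 passed the filter. None was higher and 3 were lower (SNORD10, SNORD45A and SNORD88B, all named after their values were seen), with a median log2 fold change of -0.32. Among all genes tested 12.9% were called higher and 15.0% lower. The groups did not overlap for 27 of the 58, against 64.2% of all genes tested. At an unadjusted p under 0.05, 1 of the 58 was higher and 7 were lower. DESeq2's Wald test called 0 of the 58 and limma-voom 2. Their summed level was 73.4 and 78.9 CPM in the PELP1 siRNA libraries, against 96.9 and 93.1 CPM in the control libraries. Genes with HIST1, HIST2 or HIST3 symbols summed to 86.4 and 98.6 CPM with PELP1 siRNA and 107 and 110 CPM with control siRNA. These are replication-dependent histone genes, most of whose mRNAs also lack a poly(A) tail. Of 19 tested, 0 were higher and 2 lower (HIST1H2BK and HIST2H2BE, chosen after their values were seen), beside the same shares of all genes. The groups did not overlap for 10 of the 19. With an unadjusted p under 0.05, 0 were higher and 4 lower, and DESeq2's Wald test called 0 of the 19 and limma-voom 1. Whether the mRNAs counted for the 2 called genes lack a tail was not tested. The call of HIST2H2BE was lost with limma-voom (adjusted p = 0.0529) and with a replicate block (adjusted p = 0.0522). The part of the snoRNA and histone levels in the fall of NEAT1 was not tested either.

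**Figure D2:**
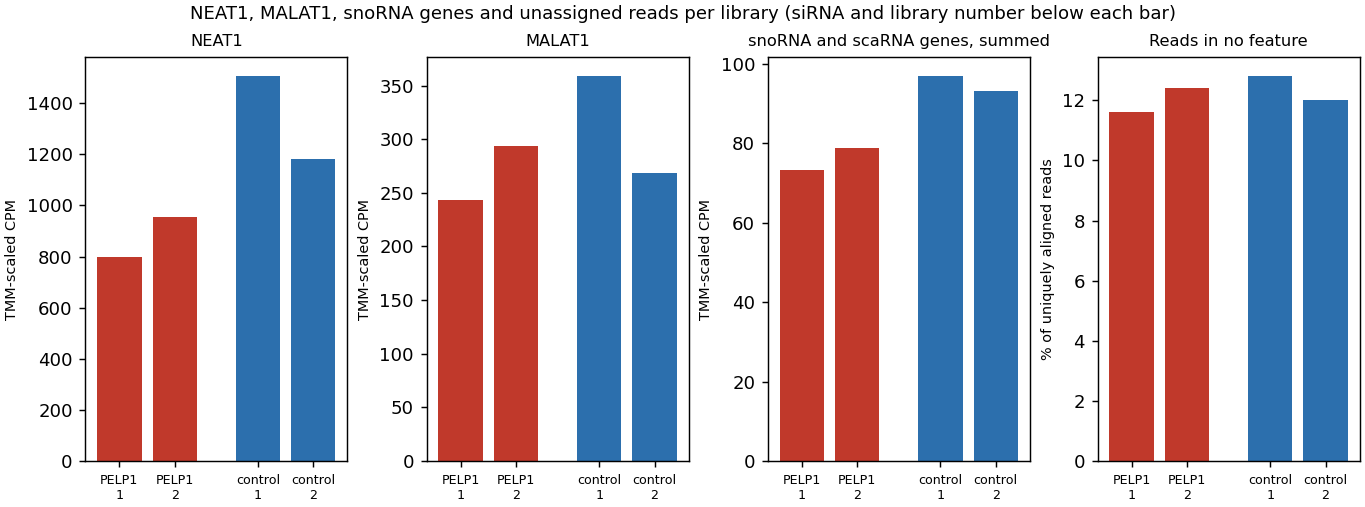
Bars give, for each library, the TMM-scaled CPM of NEAT1, of MALAT1 and of all snoRNA and scaRNA symbols together, and the percent of uniquely aligned reads in no annotated feature (PELP1 siRNA in red, control siRNA in blue). Within each group the library with more NEAT1 also has more MALAT1 and more reads in no feature.

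SNHG1 (GRCh37 chromosome 11, 62619450 to 62623425, minus strand), which carries a row of box C/D snoRNAs in its introns, had 71.6 and 74.7 CPM in the PELP1 siRNA libraries, against 85.3 and 92.8 CPM in the control libraries. The groups did not overlap. On the log2 scale the change was -0.28 (SE 0.076, adjusted p = 0.00686, edgeR quasi-likelihood test). The call was lost without control library 1 (adjusted p = 0.0722) or control library 2 (adjusted p = 0.314). SLC3A2, the heavy chain of amino acid transporters, starts 51 bases away on the other strand and also fell. It stood at 188 ± 5.60 CPM with PELP1 siRNA and 254 ± 7.38 CPM with control siRNA (SD, n = 2 each; log2 fold change -0.43, adjusted p = 2.12e-05). WDR74, a ribosome assembly factor on the other side, did not pass (log2 fold change -0.030, adjusted p = 0.838).

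SNHG7 (GRCh37 chromosome 9, 139615818 to 139622636, minus strand), a host of H/ACA snoRNAs, had 22.9 and 24.6 CPM in the PELP1 siRNA libraries, against 31.9 and 30.5 CPM in the control libraries. Again the groups did not overlap, and each pair was close. The log2 fold change was -0.39 (SE 0.095, adjusted p = 0.00320, edgeR quasi-likelihood test), with an adjusted p of 0.113 without control library 1. In the annotation 30.3% of its exon bases are shared with DIPK1B on the opposite strand. That gene, listed as FAM69B, was low, at 1.12 CPM with PELP1 siRNA and 1.57 CPM with control siRNA.

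SNHG6 (GRCh37 chromosome 8, 67832796 to 67838633, minus strand), host of SNORD87, was the 1 RNA of the 9 called higher. It had 47.6 and 56.6 CPM in the PELP1 siRNA libraries, against 41.8 and 42.1 CPM in the control libraries. Both PELP1 siRNA libraries lay above the nearly equal control libraries, and they differed by 17.2% of their mean. The log2 fold change was 0.31 (SE 0.092, adjusted p = 0.0124, edgeR quasi-likelihood test). It was lost without control library 1 (adjusted p = 0.185) or control library 2 (adjusted p = 0.158), and was 0.19 without PELP1 siRNA library 2 (adjusted p = 0.0328). MCMDC2 shares 58.9% of the exon bases of SNHG6 on the opposite strand. Under its older name C8orf45 it had 1.5 CPM with PELP1 siRNA and 0.932 CPM with control siRNA (adjusted p = 0.102).

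SNHG3 (GRCh37 chromosome 1, 28832492 to 28837404, plus strand), host of the H/ACA snoRNAs SNORA73A and SNORA73B, had 52.5 and 57.6 CPM in the PELP1 siRNA libraries, against 62.6 and 59.6 CPM in the control libraries. The groups did not overlap, but the difference did not pass the threshold (log2 fold change -0.15, SE 0.083, adjusted p = 0.177, and 0.00547 without PELP1 siRNA library 2). SNHG3 shares 5.92% of its exon bases with RCC1 on the same strand. RCC1, the exchange factor of the GTPase Ran, fell, at 117 ± 2.42 CPM with PELP1 siRNA and 149 ± 6.36 CPM with control siRNA (SD, n = 2 each; log2 fold change -0.35, adjusted p = 5.04e-04, and 0.0921 without control library 2). How the counting treated reads in the shared bases is not given in the sources used here.

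GAS5 (GRCh37 chromosome 1, 173827697 to 173838020, minus strand), SNHG5 (chromosome 6, 86360209 to 86388650, minus strand) and SNHG8 (chromosome 4, 119199858 to 119206471, plus strand) showed overlapping groups. GAS5, which also acts as a decoy for the glucocorticoid receptor, had 18.5 and 20.7 CPM in the PELP1 siRNA libraries, against 21.3 and 19.8 CPM in the control libraries. The change in log2 terms was -0.065 (SE 0.11, adjusted p = 0.683). GAS5 had the lowest counts of the 9, with a counting error of up to 5.2% in a library. SNHG5, host of SNORD50A and SNORD50B, had 64.9 and 72.3 CPM in the PELP1 siRNA libraries, against 64.4 and 65.8 CPM in the control libraries (log2 fold change 0.075, SE 0.080, adjusted p = 0.520). SNHG8, host of SNORA24, had 45.1 and 57.7 CPM in the PELP1 siRNA libraries, against 48.6 and 48.2 CPM in the control libraries (log2 fold change 0.087, SE 0.098, adjusted p = 0.542). On the opposite strand 37.6% of the exon bases of SNHG8 are shared with PRSS12, a protease gene whose log2 fold change was -0.043 (adjusted p = 0.854).

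PELP1 siRNA library 2 was higher than library 1 for each of the 7 hosts, and the control libraries showed no such common order. The summed level of the 7 hosts was 323 and 364 CPM in PELP1 siRNA libraries 1 and 2, against 356 and 359 CPM in control libraries 1 and 2. This order of the PELP1 siRNA libraries was not particular to the 7 hosts. It was also seen for NEAT1, for MALAT1 and for the other noncoding snoRNA hosts described below, which summed to 922 and 1021 CPM. Without PELP1 siRNA library 1, SNHG5 (log2 fold change 0.15, adjusted p = 0.0366) and SNHG8 (0.26, adjusted p = 8.97e-04) passed the threshold as higher, and without library 2 SNHG8 was at -0.096 on that scale (adjusted p = 0.317). GAS5 was at 0.022 without PELP1 siRNA library 1 (adjusted p = 0.894).

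**Figure D3:**
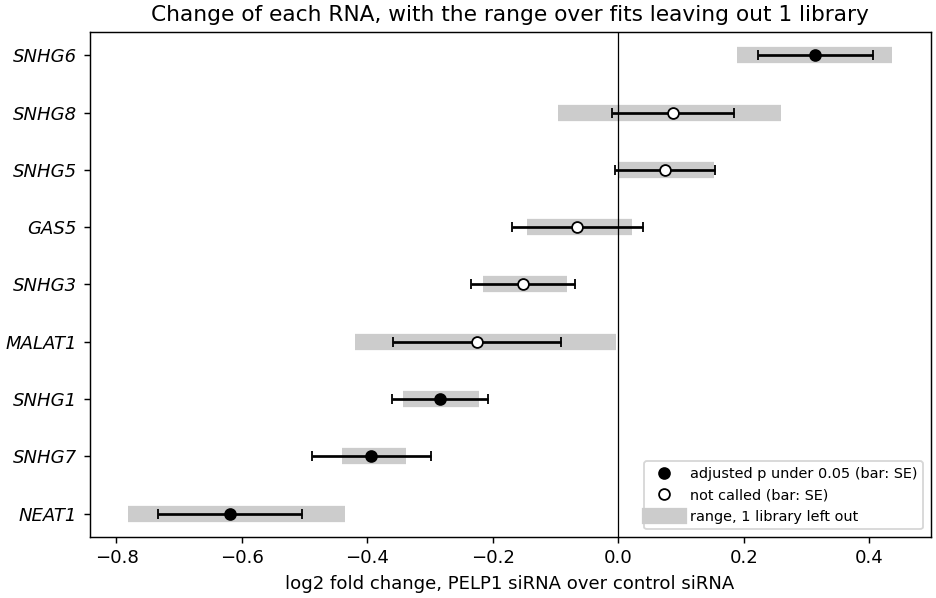
Log2 fold change of each RNA (PELP1 siRNA over control siRNA) with its SE, filled where the adjusted p was under 0.05; grey bands span the 4 fits that each leave out 1 library. NEAT1, SNHG7, SNHG1 and SNHG6 keep their direction in these fits, as does SNHG3, which was not called. The bands of SNHG8 and GAS5 cross 0, while those of MALAT1 and SNHG5 end close to it, at -0.0032 and 0.0009.

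Inside the hosts RefSeq annotates 28 snoRNAs, of which 24 had a row in the files, some under an earlier name. Of these 17 passed the filter and 0 were called by the edgeR quasi-likelihood test. Their reads were few: 309 and 312 in all in the PELP1 siRNA libraries, against 367 and 452 in the control libraries. None of the 17 had an unadjusted p under 0.05 either, and DESeq2's Wald test and limma-voom each called 0. A mature snoRNA is short beside a library insert, so these counts are a weak measure of its level.

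The 8 box C/D snoRNAs of SNHG1 in the files (SNORD22 and SNORD25 to SNORD31) summed to 7.15 and 6.32 CPM in the PELP1 siRNA libraries, against 8.25 and 8.83 CPM in the control libraries. The groups did not overlap, as for the host and for 64.2% of all genes tested. Per 100 reads of SNHG1 there were 9.99 and 8.46 snoRNA reads in the PELP1 siRNA libraries, against 9.67 and 9.52 in the control libraries, and here the groups overlapped. Among them SNORD27 had 14 and 14 counts in the PELP1 siRNA libraries, against 25 and 22 in the control libraries (adjusted p = 0.189, edgeR quasi-likelihood test).

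The 10 snoRNAs of GAS5 in the files summed to 6.85 and 7.85 CPM in the PELP1 siRNA libraries, against 8.20 and 9.24 CPM in the control libraries. Per 100 reads of GAS5 that is 37.1 and 37.8 snoRNA reads with PELP1 siRNA, against 38.5 and 46.7 with control siRNA. In both measures the PELP1 siRNA libraries lay below the control libraries without overlap, in the second by 37.8 against 38.5 for the nearest libraries. Of all genes tested 64.2% also showed no overlap. The sums rest on few reads of these snoRNAs, 135 and 149 with PELP1 siRNA and 159 and 207 with control siRNA. SNORD80, the most counted of them, had 3.04 and 2.63 CPM in the PELP1 siRNA libraries, against 2.32 and 2.59 CPM in the control libraries, and was not called (log2 fold change 0.21, adjusted p = 0.521, edgeR quasi-likelihood test). SNORD87 inside SNHG6 had 6 and 10 counts with PELP1 siRNA, against 16 and 11 with control siRNA, while its host was higher. The H/ACA snoRNAs of SNHG7 had no count in any library, and those of SNHG3 were not analysed here.

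**Figure D4:**
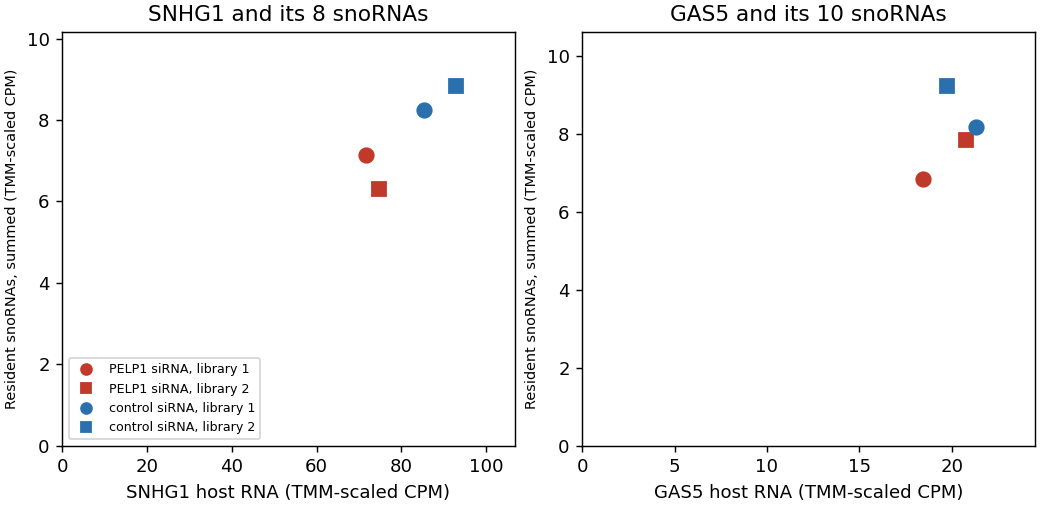
TMM-scaled CPM of SNHG1 and GAS5 beside the summed CPM of the snoRNAs inside them, with 1 point per library (PELP1 siRNA in red, control siRNA in blue). For SNHG1 the PELP1 siRNA libraries are lower on both measures, and for GAS5 the host levels overlap between groups while the summed snoRNA levels are lower in the PELP1 siRNA libraries.

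Among other noncoding snoRNA hosts, 11 of 16 listed were found and tested, with 0 higher, 1 lower and a median log2 fold change of 0.12. The 1 lower was SNHG12, at 8.28 ± 0.656 CPM with PELP1 siRNA and 13.1 ± 1.03 CPM with control siRNA (SD, n = 2 each; log2 fold change -0.66, adjusted p = 5.16e-04, edgeR quasi-likelihood test). Of 43 protein-coding hosts tested, 1 was higher and 4 lower, with a median of 0.045. Beside these and the lists that follow, 12.9% of all genes tested were called higher and 15.0% lower. RPL4, a large-subunit ribosomal protein, was at 622 CPM with PELP1 siRNA and 538 CPM with control siRNA (adjusted p = 0.0138). RPL3, also of the large subunit, went the other way, at 631 CPM with PELP1 siRNA and 739 CPM with control siRNA (adjusted p = 0.0121, edgeR quasi-likelihood test). EIF4G2, an initiation factor for translation without a cap, was at 1456 CPM with PELP1 siRNA and 1763 CPM with control siRNA (adjusted p = 0.00174).

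Of 18 other long noncoding RNAs tested, 1 was higher and 4 lower, against 12.9 and 15.0% of all genes tested. Their median log2 fold change was -0.044. MEG3, an imprinted RNA with growth-limiting roles, fell to 4.69 ± 0.671 CPM with PELP1 siRNA, against 13.9 ± 1.08 CPM with control siRNA (SD, n = 2 each; log2 fold change -1.56, adjusted p = 2.66e-08, edgeR quasi-likelihood test). TUG1 fell to 99.6 CPM with PELP1 siRNA, against 132 CPM with control siRNA (adjusted p = 9.76e-05). MIR17HG, the host of the miR-17 cluster, fell to 6.40 CPM with PELP1 siRNA, against 10.6 CPM with control siRNA (adjusted p = 7.78e-04). C17orf91 fell as well (log2 fold change -0.66), and C1orf97 rose (log2 fold change 0.94).

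Paraspeckle and speckle proteins are the partners of NEAT1 and MALAT1. Of 23 paraspeckle proteins 4 were higher and 1 lower, against 12.9 and 15.0% of all genes tested. Their median log2 fold change was 0.052. The core proteins NONO (log2 fold change -0.083, adjusted p = 0.347) and SFPQ (0.085, adjusted p = 0.322) did not pass, while PSPC1 rose to 33.3 CPM with PELP1 siRNA, against 26.3 CPM with control siRNA (adjusted p = 0.00919). RBM3, a cold-induced RNA-binding protein, fell to 217 CPM with PELP1 siRNA, against 264 CPM with control siRNA (adjusted p = 0.00179). Of 34 nuclear speckle proteins 0 were higher and 8 lower, beside the same shares of all genes, with a median of -0.071. Among them RNPS1, a splicing activator, fell to 32.6 CPM with PELP1 siRNA, against 44 CPM with control siRNA (adjusted p = 7.34e-04), and the kinase CLK1 to 38.1 CPM, against 49.0 CPM (adjusted p = 0.00505).

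The proteins of the snoRNA particles were mostly not called, as were most genes tested (12.9% called higher and 15.0% lower). Of the 4 box C/D proteins NOP56 fell (log2 fold change -0.36, adjusted p = 0.00119), while FBL, the methyltransferase, had 0.093 (adjusted p = 0.365). Of the 4 box H/ACA proteins NOP10 rose (log2 fold change 0.24, adjusted p = 0.0228, and 0.0554 by DESeq2's Wald test), while DKC1, the pseudouridine synthase, had -0.13 (adjusted p = 0.163). Of 13 assembly factors 2 were higher and 1 lower. RUVBL2 rose to 99.8 CPM with PELP1 siRNA, against 81.3 CPM with control siRNA, and ZNHIT6 fell to 14.7 CPM, against 20.9 CPM.

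Factors that remove such RNAs showed calls in both directions. Of 17 nonsense-mediated decay factors 3 were higher and 2 lower, with a median log2 fold change of -0.014. SMG5 rose to 337 CPM with PELP1 siRNA, against 274 CPM with control siRNA (adjusted p = 7.17e-04), and the helicase UPF1 did not pass (log2 fold change -0.11, adjusted p = 0.220). Of 21 nuclear exosome proteins and adaptors 1 was higher and 3 lower, with a median of -0.016. Of 12 regulators of 5'TOP RNAs 2 were higher and 1 lower: MTOR rose to 204 CPM with PELP1 siRNA, against 171 CPM with control siRNA (adjusted p = 0.00556), and RICTOR fell to 47.5 CPM, against 58.6 CPM (adjusted p = 0.0139). Among all genes tested 12.9% were called higher and a further 15.0% lower. Over all these lists a smaller share than these together was called in either direction, 39 of 197 genes or 19.8%. That count was 8 without control library 1, 12 without control library 2, 92 without PELP1 siRNA library 1 and 72 without PELP1 siRNA library 2. Of 25 genes that the naming rule gave from these lists, 19 lost the call without control library 1 and 16 without control library 2, and SNHG12, MEG3, C17orf91, C1orf97, PNRC2 and PABPN1 were called in each of the 4 fits that left out 1 library.

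**Figure D5:**
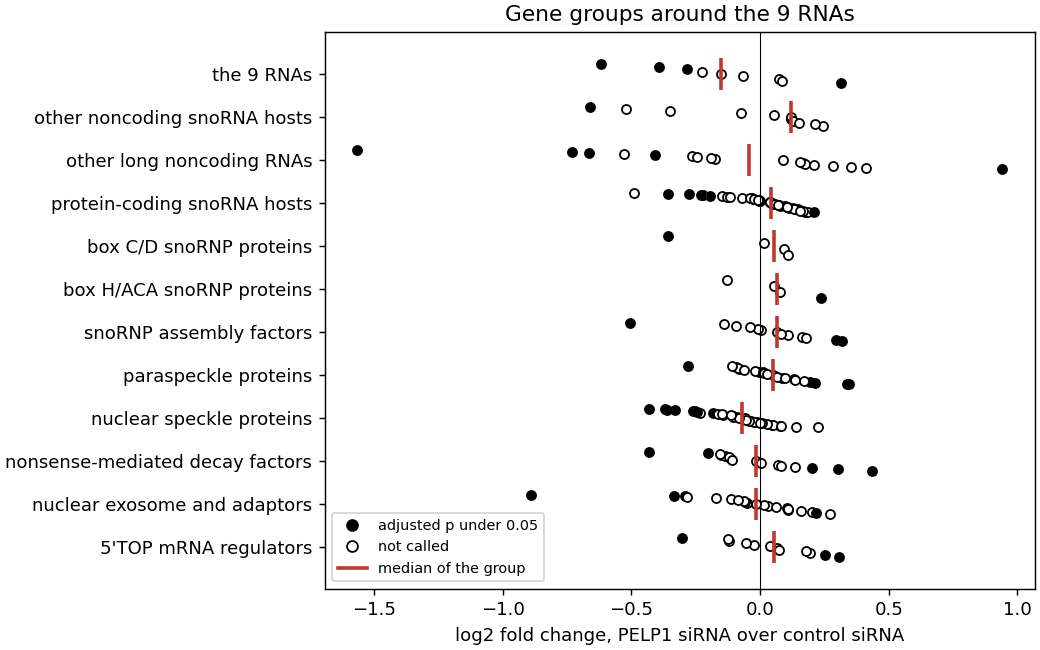
Log2 fold change (PELP1 siRNA over control siRNA) of the 9 RNAs and of the genes in 11 related lists, 1 point per gene, filled where the adjusted p was under 0.05, with the median in red. List medians lie between -0.15 for the 9 RNAs and 0.12 for the other noncoding hosts.

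The genes whose levels over the 4 libraries were most like those of each called RNA were found by the Euclidean distance of log2 CPM, centred per gene, among 10592 genes. For NEAT1 they were LTBP4 (distance 0.0893), NAB2 (0.0984) and CROCC (0.0997). SNHG1 was closest to ZFAND2A (0.0231), SLC6A8 (0.0288) and SLC25A43 (0.0300). SNHG7 was closest to ZNF142 (0.0221), ZNF335 (0.0226) and SETD1B (0.0279), and SNHG6 to ECSIT (0.0213), SERTAD3 (0.0257) and HSPE1 (0.0279). With 4 libraries in 2 groups, many genes that differ between the groups come close in this measure. NEAT1's nearest genes were farther from it than those of the 3 hosts were from theirs.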

How the data were processed

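RNA-seq libraries from U87 MG cells were made with a total RNA kit and read as 50 bp single ends, per the labels' protocols. The submitters' processing notes name CASAVA 1.8.2, TopHat2 2.0.8b and HTSeq with a human GRCh37 build. No annotation release, strand setting or HTSeq version was found in these sources. The deposited files hold raw counts per gene symbol, made by the authors with no normalization. Lines of the counter's own summary (36.0 to 37.6% of all counts) were left out of library sizes.

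Counts were fitted with edgeR 4.0.16 (R 4.3.3) by its robust quasi-likelihood test, with TMM scaling, filterByExpr (minimum count 10, minimum total 15) and Benjamini-Hochberg adjustment over 13234 of 23228 genes; an adjusted p under 0.05 was a call. PELP1 siRNA was compared with control siRNA, 2 libraries each, with group as the only term. DESeq2 1.42.0, limma-voom (limma 3.58.1), other scalings and filters, a replicate block and each library left out were alternatives. The fit was tested on simulated data. Gene positions are from GENCODE on GRCh37, whose spans can differ from the authors' annotation, and the snoRNAs inside hosts and start regions are from RefSeq (GRCh38.p14). Levels are not compared between genes by length, since the counted lengths are not given.

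The members and lists were chosen with earlier results of these data known; 226 of 236 list entries were found, in part by older names. Named genes are the 9 RNAs, PELP1, for each list the 2 most significant called genes per direction, nearest protein-coding neighbours, snoRNAs inside hosts with at least 10 counts in 1 library, and the 3 genes closest in pattern to each called RNA. TUG1, MIR17HG, NONO, SFPQ, FBL, DKC1, UPF1, RCC1, RPL3, FAM69B and C8orf45 were named outside that rule, after their values were seen. So were SNORD10, SNORD45A, SNORD88B, HIST1H2BK, HIST2H2BE, CD14 and PECAM1.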

Additional observations from a re-analysis of the deposited data

How the results depend on the processing

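Over 13 alternatives SNHG7 was called in 12, NEAT1, SNHG1 and SNHG6 in 11 each, MALAT1 in 3, SNHG3, SNHG5 and SNHG8 in 1 each and GAS5 in 0. Directions turned for GAS5 (0.022 without PELP1 siRNA library 1, range -0.14 to 0.022 over the libraries left out) and SNHG8 (-0.096 without PELP1 siRNA library 2, range -0.096 to 0.26); the cause was not tested. Leaving out 1 library at a time gave 523 to 2724 genes higher, 943 to 2804 lower, 0 to 3 of the 9 RNAs higher, 1 to 3 lower and 8 to 92 genes of the related lists called. DESeq2's Wald test called 1118 genes higher. With total counts in place of TMM, 2272 genes were higher and 1597 lower, so that 41.3% of calls were lower, against 53.6% with TMM. The labels do not say whether libraries of the same replicate number belong together. The differences between replicates 1 and 2 in the 2 groups had a correlation of -0.031 across genes. With a replicate block 1613 genes were higher and 1968 lower. Of the 9 RNAs 1 was then higher and 4 lower, MALAT1 being added (log2 fold change -0.22, adjusted p = 0.0222 by edgeR). With 2 libraries a group, 1 library can decide a call. Counting error of the 9 RNAs was at most 5.2% in a library, while the 24 snoRNAs inside hosts had 309 and 312 reads in all with PELP1 siRNA and 367 and 452 with control siRNA.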
